A study of Mus musculus with 8 samples.

Results

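The comparison described here sets mouse embryonic stem cells grown on laminin-511 in 2i medium against the same cells grown on gelatin in Std medium, so that the coating and the medium both differ between its groups. The cells were the male line Bruce 4, of C57BL/6J background and wild type. All groups were held in their condition for 2 weeks before bulk RNA was taken. The comparison used 4 of the 8 RNA-seq libraries of the study: 2 from laminin-511 (labelled LN511 or LM511) with 2i, and 2 from gelatin with Std. The other 4, 2 from LN511 with Std and 2 from gelatin with 2i, were used to read the coating change and the medium change separately. The design text calls the 2 libraries of a group biological replicates of this single line, and the composition of Std is not given in the labels. Expression was tested for 10274 genes. The question was which genes differed when both factors changed, and how far that joint change equalled the sum of the separate changes.

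Laminin-511 is a basement membrane protein that embryonic cells bind mainly through the integrin alpha6 beta1. Gelatin is denatured collagen. The 2i medium holds an inhibitor of MEK, the kinase that activates ERK, and an inhibitor of GSK3, whose loss of activity lets beta-catenin accumulate. In mouse embryonic stem cells it is known for a uniform naive pluripotent state, in which Nanog, Klf2, Tfcp2l1 and related transcription factors are high and genes of the later, formative epiblast are low.

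The unit is FPKM, a fragment count scaled by transcript length and library depth, and a gene's value is the sum of its RefSeq transcripts. The files hold no read counts, so depth is not known. The steps between low values of 1097 genes put the deepest of the 8 libraries 1.19-fold above the shallowest. The smallest value above 0 that such a gene took had a median of 0.134 FPKM. On the log2 scale, libraries of the same group correlated at 0.919 to 0.929 across genes and libraries of different groups at 0.865 to 0.917. Assembled transcripts without a RefSeq accession, which were left out, held 58.4% and 37.1% of the transcript FPKM in LN511 2i, against 48.1% and 32.7% in gelatin Std. Their share was 44.3% in both libraries of LN511 Std, and 13.7% and 53.6% in gelatin 2i. The gene values lack those reads, and their part in any result was not tested.

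Of the 10274 genes, 1795 differed between LN511 2i and gelatin Std at a limma adjusted p under 0.05, which is 17.5% of those tested. Higher in LN511 2i were 973 genes (9.47%), and lower were 822 (8%). A difference of 1 or more on the log2 scale, which is 2-fold on the scale of FPKM + 1, was reached by 557 of the genes that rose and by 523 of those that fell. In bulk RNA, fewer cells of a type and less RNA per cell cannot be told apart for any of them. The count depended on single libraries: it was 1134 without LN511 2i replicate 2, 1023 without gelatin Std replicate 1 and 929 without gelatin Std replicate 2, and 962 with the 4 libraries of the comparison alone.

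The medium change on gelatin and the coating change in Std were read against the same gelatin Std libraries as the joint change, so the 3 are not independent. On gelatin, 1583 genes (15.4%) differed between 2i and Std, 843 higher (8.21%) and 740 lower (7.2%) in 2i. In Std, 216 genes (2.1%) differed between LN511 and gelatin, 158 higher (1.54%) and 58 lower (0.565%) on LN511. With only the 4 libraries of each comparison, the counts were 998 for the medium and 6 for the coating. Single genes called for a separate change were not followed through the alternative fits, so their calls are less certain than the joint ones. The 973 genes higher in LN511 2i had a median joint change of 1.11, a median medium change of 0.91 and a median coating change of 0.23, and the median of their sums was 1.14. For the 822 lower genes the medians were -1.20 for the joint change, -0.96 for the medium change, -0.11 for the coating change and -1.03 for the sum. Over all genes tested the median joint change was 0.00 and the median sum 0.04.

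The departure is the joint change minus the sum of both separate changes, on the scale of log2(FPKM + 1). It is also the medium change on LN511 minus the medium change on gelatin, and a value below 0 means that LN511 2i lay below the level that the sum gives. With equal spread in all libraries its error is not correlated with that of the joint change. The median departure was -0.06 for the genes that rose, -0.06 for those that fell and -0.04 for all tested. Its absolute value was above 1 for 239 of the 1795 called genes (13.3%) and for 1427 of all 10274 (13.9%). The 30 genes higher by more than 3 had a median departure of -0.27 and the 27 lower by more than 3 had one of -0.47.

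By its own test the departure was called for 19 genes (0.185%), 5 above the sum (0.0487%) and 14 below it (0.136%), while 1251 genes (12.2%) had an unadjusted p under 0.05. The joint change itself was called for 9 of the 19. The calls depended on single libraries: limma made 0 without LN511 Std replicate 1 or without either gelatin Std library, and 2 to 11 without any one of the others. A gene without a call is not shown to follow the sum. The median SE of the departure was 0.39, and its 95% interval lay within 1 of 0, a bound chosen after the values were seen, for 831 of the 1795 called genes (46.3%) and for 254 of the 1080 that differed by 1 or more (23.5%).

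**Figure D1:**
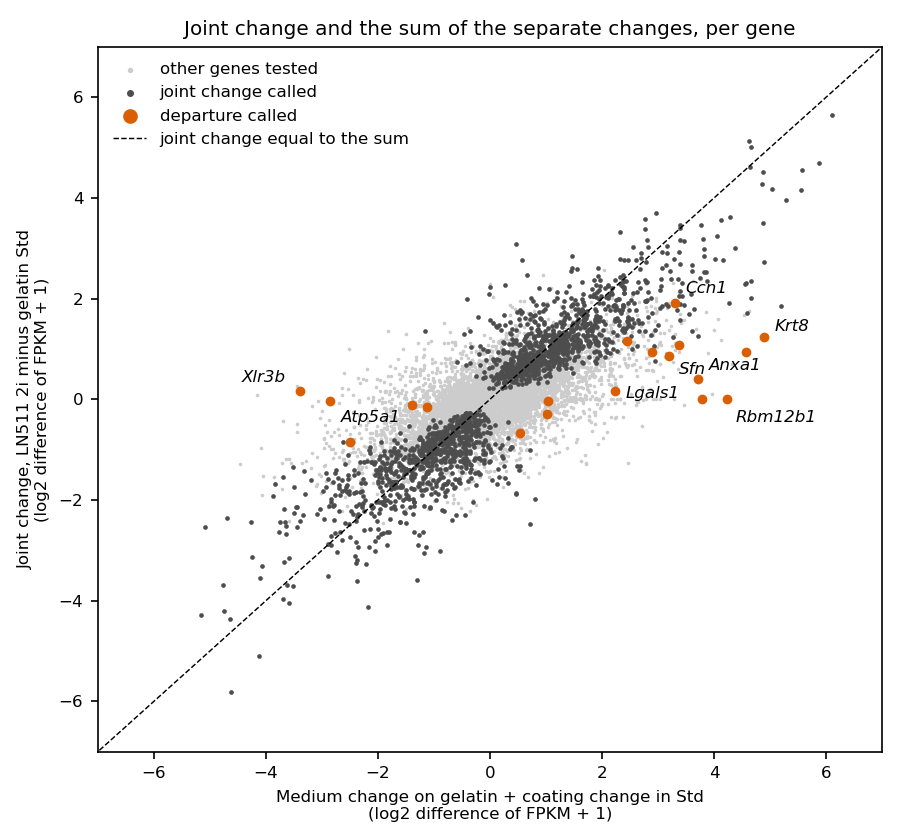
Joint change, LN511 2i minus gelatin Std (vertical axis), against the sum of the medium change on gelatin and the coating change in Std (horizontal axis), both as log2 differences of FPKM + 1; each point is 1 of 10274 genes, dark where the joint change was called and orange for the 19 genes with a called departure. The dashed line marks equality; both axes share the gelatin Std libraries, and most orange points lie below the line, 14 of 19.

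The steepest rises were of genes of varied function. Calcoco2, on chromosome 11 at 96098916 to 96124560 (GRCm38.p6), encodes a receptor that brings cargo to autophagosomes. It stood at 275 and 291 FPKM in LN511 2i, against 4.41 and 4.97 FPKM in gelatin Std, a 49.9-fold rise on the FPKM + 1 scale (log2 5.64 ± 0.10 SE, n = 2 each, limma adjusted p = 3.44e-06). The LN511 2i libraries were far above both gelatin Std libraries, and the intermediate groups lay between, at 12.3 and 12.6 FPKM in LN511 Std and 171 and 161 FPKM in gelatin 2i. Ckb, the cytosolic creatine kinase that buffers ATP, had 723 and 883 FPKM in LN511 2i, against 28.5 and 31.4 FPKM in gelatin Std, a rise of 4.7 ± 0.11 (adjusted p = 7.96e-06). Both separate changes of Ckb were called, 4.28 for the medium and 1.58 for the coating, and their sum of 5.87 was above the joint change by more than 1 (departure -1.17, interval -1.54 to -0.81, adjusted p = 0.0539, not called).

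Cited4, a coactivator that binds CBP and p300, had 36.5 and 42.1 FPKM in LN511 2i, against 0 and 0.55 FPKM in gelatin Std. Its levels were 4.04 and 2.64 FPKM in LN511 Std and 6.2 and 10.8 FPKM in gelatin 2i, so both LN511 2i libraries exceeded all 6 others. The sum of its separate changes was 4.67 and its joint change 5.01 ± 0.35 (adjusted p = 0.000361), with a departure of 0.34 (interval -0.85 to 1.53).

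In each of the 8 steepest rises, those above included, the medium change was larger than the coating change. Aqp3, a channel for water and glycerol, had 73.4 and 85.9 FPKM in LN511 2i, against 2.65 and 1.99 FPKM in gelatin Std. It was as high in gelatin 2i, at 77.3 and 78.4 FPKM, and its coating change in Std was 0.07 (adjusted p = 0.893), with a joint change of 4.61 and a sum of 4.65. Jam2, a junctional adhesion molecule, had 62.7 and 70.8 FPKM in LN511 2i, against 1.54 and 2.44 FPKM in gelatin Std. Its joint change was 4.52 and its medium change 4.66. Ptges, which makes prostaglandin E2, had 32.5 and 31.2 FPKM in LN511 2i, against 0.44 and 1.00 FPKM in gelatin Std, with 3.77 and 3.15 FPKM in LN511 Std and 16.9 and 19 FPKM in gelatin 2i; its coating change of 1.39 (adjusted p = 0.038) and its medium change of 3.48 were both called, and its joint change of 4.27 compared with a sum of 4.86. The transcribed pseudogene 2210409E12Rik also belonged to this set, with 379 and 352 FPKM in LN511 2i, against 6.46 and 13.6 FPKM in gelatin Std. That the lowest LN511 2i library was above the highest gelatin Std library in each was required by the rule that chose these genes.

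The steepest fall was that of Lefty1, a secreted inhibitor of Nodal, on chromosome 1 at 180935022 to 180938401. It had 1.12 and 0 FPKM in LN511 2i, against 84.2 and 77.4 FPKM in gelatin Std, a joint change of -5.81 ± 0.35 (adjusted p = 0.00017). One LN511 2i library listed it at 0, and neither came near gelatin Std. It was lower in each of the other groups too, with 33 and 38.5 FPKM in LN511 Std and 7.24 and 5.64 FPKM in gelatin 2i, and the joint change went past the sum of -4.62 by a departure of -1.19 (interval -2.35 to -0.02, adjusted p = 0.403, not called). Enpp3, an ectoenzyme that splits extracellular nucleotides, had 0.15 and 0.30 FPKM in LN511 2i, against 43.2 and 38.7 FPKM in gelatin Std, a joint change of -5.1 (adjusted p = 5.96e-05). In Std the coating left it at 42.1 and 50.2 FPKM, a coating change of 0.17 (adjusted p = 0.775).

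Gadd45g, a stress-inducible growth-arrest gene, had 0.45 and 0.46 FPKM in LN511 2i, against 27.6 and 30.5 FPKM in gelatin Std. Pim2, a serine/threonine survival kinase, had 7.03 and 7.81 FPKM in LN511 2i, against 162 and 165 FPKM in gelatin Std. The LN511 2i and gelatin Std libraries of both genes were wide apart. Pim2 was also lower on LN511 than on gelatin in Std, by -0.86 (adjusted p = 0.026), yet stood at 6.96 and 7.86 FPKM in gelatin 2i, so that its joint change of -4.29 was less steep than the sum of -5.15 (departure 0.86, interval 0.45 to 1.27, adjusted p = 0.137, not called). Slc39a14, a zinc and manganese importer, had 1.58 and 0 FPKM in LN511 2i, against 27.3 and 26.6 FPKM in gelatin Std, and here the joint change of -4.12 went beyond the sum of -2.17 (departure -1.95, interval -3.37 to -0.53, adjusted p = 0.275, not called). Calca, which encodes calcitonin and CGRP, had 3.65 and 0 FPKM in LN511 2i, against 33.6 and 36 FPKM in gelatin Std; its call was lost with the 4 libraries alone (adjusted p = 0.0595). For Slc39a14 and Calca 1 of the LN511 2i libraries was listed at 0 and the other was low.

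**Figure D2:**
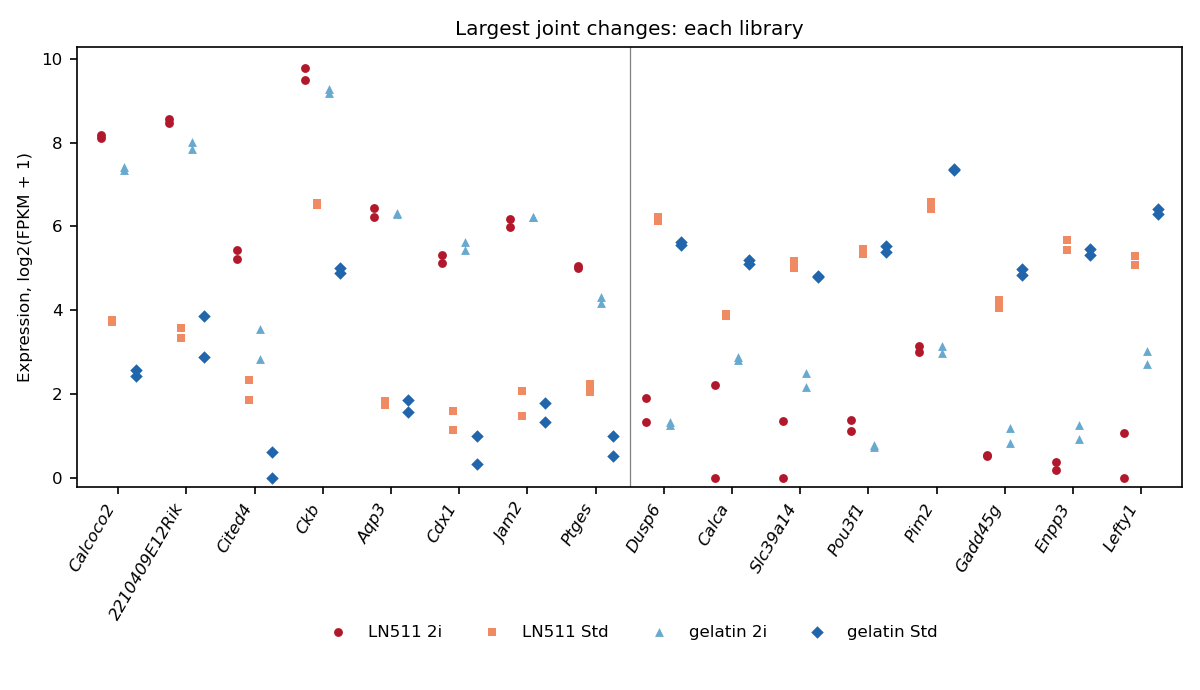
Expression of the 8 genes with the highest and the 8 with the lowest joint changes, as log2(FPKM + 1) (vertical axis), with 1 point per library and the 4 groups in the order LN511 2i, LN511 Std, gelatin 2i, gelatin Std. The genes were chosen among called ones whose LN511 2i and gelatin Std libraries do not overlap, so that separation was set by the choice. The mean of gelatin 2i lies nearer to that of LN511 2i than to that of gelatin Std in all 16 genes.

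Naive pluripotency genes rose as the group with the highest median. Of 19 members tested, 12 rose and 1 fell, against 9.47% and 8% of all genes. The median joint change was 1.89, against 0.00 over all genes. Nanog, the homeobox factor of the naive network, had 550.2 and 614 FPKM in LN511 2i, against 56.7 and 53.1 FPKM in gelatin Std, a 10.4-fold rise (3.38 ± 0.09, adjusted p = 1.58e-05). The groups were far apart. Its level was 48.4 and 43.2 FPKM in LN511 Std and 446 and 455 FPKM in gelatin 2i, and its sum was 2.76, with a departure of 0.62 (interval 0.32 to 0.93, adjusted p = 0.149, not called).

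Tfcp2l1, a factor downstream of LIF and of beta-catenin, had 135 and 94.4 FPKM in LN511 2i, against 4.96 and 5.72 FPKM in gelatin Std, a joint change of 4.17 against a sum of 5.04. Klf2 had 108 and 136 FPKM in LN511 2i, against 13.5 and 14.8 FPKM in gelatin Std, and Klf4, a STAT3 target of the same Krüppel-like family, 112 and 114 FPKM in LN511 2i, against 19.3 and 20.9 FPKM in gelatin Std. Prdm14, which represses formative and methylation genes, had 16.3 and 14.7 FPKM in LN511 2i, against 0 and 1.21 FPKM in gelatin Std. All LN511 2i libraries of these genes exceeded all gelatin Std libraries. Tdh, the threonine dehydrogenase of naive cells, rose by 2.38 (adjusted p = 3.21e-05), Zfp42, the naive marker also called Rex1, by 1.69 (adjusted p = 0.00146) and Esrrb, an orphan nuclear receptor, by 1.89 (adjusted p = 0.00767). Esrrb had 80.6 and 98.9 FPKM in LN511 2i, against 28.9 and 18.9 FPKM in gelatin Std, with 46.5 and 53.8 FPKM in LN511 Std and 92.2 and 161 FPKM in gelatin 2i, and a sum of 3.39, above its joint change (departure -1.51, interval -2.51 to -0.50, adjusted p = 0.244, not called). The member that fell was Gbx2, a homeobox factor, with 4.78 and 8.39 FPKM in LN511 2i, against 18.1 and 17.1 FPKM in gelatin Std; it is outside the rule by which genes were named and was picked after its values were seen, like Spry2, Kdm3a, Lamb1, Plagl1 and Flna below. Its call was lost without gelatin Std replicate 1 (joint change -1.29) or replicate 2 (-1.38), and with the 4 libraries alone (limma adjusted p = 0.0722). Over the list the median of the sums was 2.33, the median medium change 2.17, the median coating change 0.21 and the median departure -0.25.

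Formative and primed genes moved the other way: 10 of 14 fell and 0 rose, against 8% and 9.47% of all genes. Their median joint change was -1.96. Pou3f1, the POU factor Oct6, had 1.18 and 1.63 FPKM in LN511 2i, against 40.9 and 45.1 FPKM in gelatin Std (joint change -4.2, adjusted p = 7.02e-05). Otx2, a homeobox factor of the epiblast, had 0.20 and 0 FPKM in LN511 2i, against 12.5 and 14 FPKM in gelatin Std (joint change -3.7, adjusted p = 0.00128). Fgf5 was listed at 0 in both LN511 2i libraries, against 1.5 and 1.84 FPKM in gelatin Std. The groups of all 3 were separate, and for Pou3f1 the coating change in Std was -0.06 (adjusted p = 0.93). The median sum of the list was -2.37, of which the medium gave a median of -2.25 and the coating one of 0.06, and the median departure was 0.40.

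In the list of 13 core pluripotency genes that naive and primed cells share, 4 fell and 2 rose (median -0.40). Of all genes tested, 8% fell and 9.47% rose. Fewer of the list rose without gelatin Std replicate 2. Sox2 had 174 and 170.4 FPKM in LN511 2i, against 120.02 and 128 FPKM in gelatin Std, a rise of 0.47 (adjusted p = 0.00818). Pou5f1, the core factor Oct4, had 1109.8 and 1245 FPKM in LN511 2i, against 1015 and 949 FPKM in gelatin Std and just missed the call (joint change 0.26, adjusted p = 0.0536), which it made without LN511 2i replicate 1 (adjusted p = 0.0244). Its departure was 0.00, with an interval of -0.25 to 0.24. Mycn, the proto-oncogene of the Myc family, had 41.1 and 39.6 FPKM in LN511 2i, against 178 and 170.4 FPKM in gelatin Std, and Utf1, a chromatin factor of pluripotent cells, 77.5 and 86.7 FPKM in LN511 2i, against 362 and 335 FPKM in gelatin Std. These falls, of -2.08 and -2.07, lay close to their sums of -2.33 and -1.91. Tdgf1, the Nodal coreceptor Cripto, fell by 1.29 with contributions from both factors, -0.85 for the medium and -0.47 for the coating, both called. Its departure was 0.03, with an interval of -0.20 to 0.26.

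**Figure D3:**
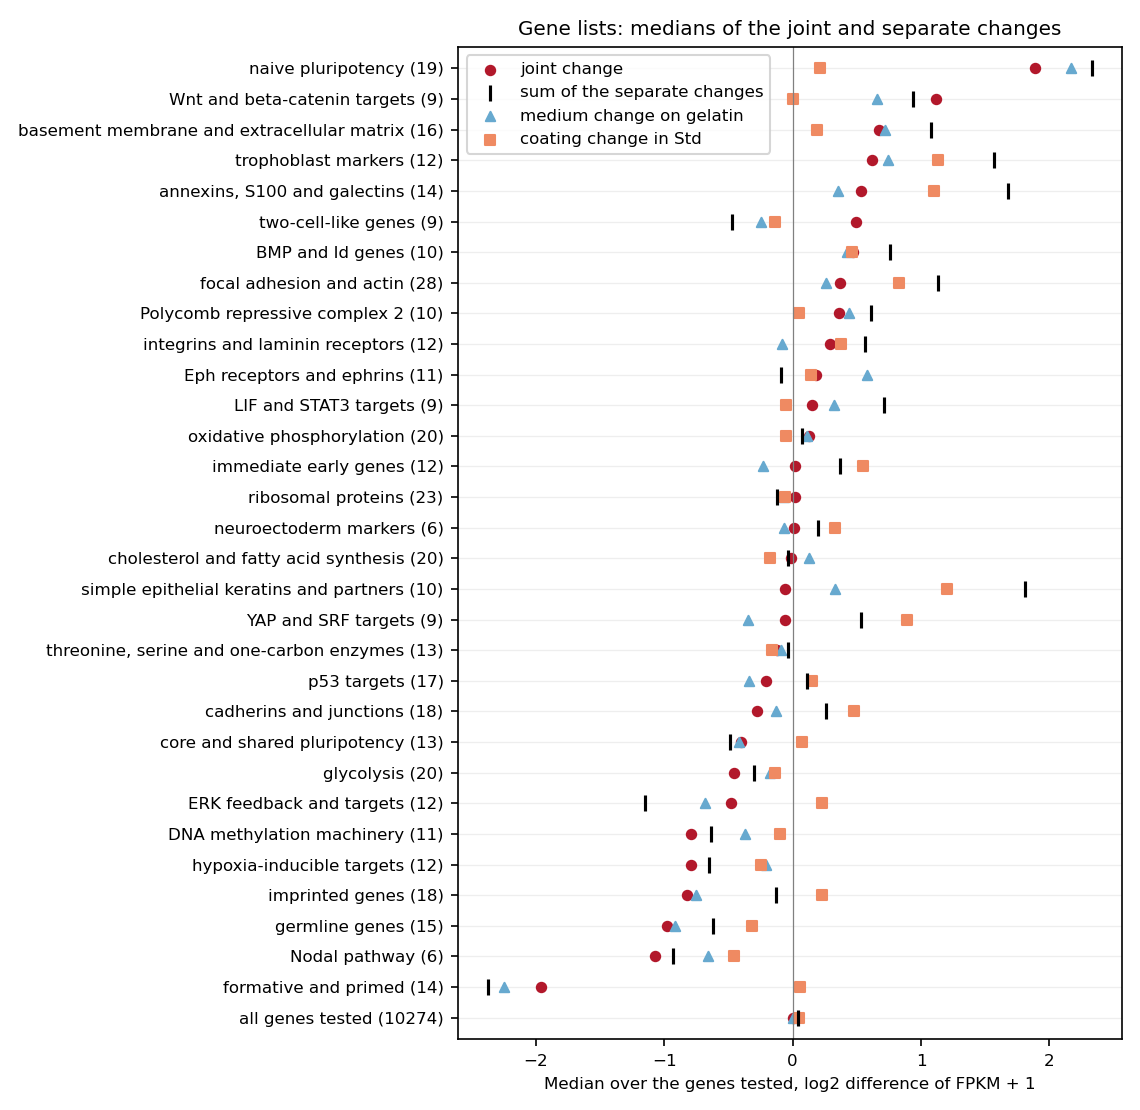
Median over the tested members of each gene list (number in brackets) of the joint change, the medium change on gelatin, the coating change in Std and the sum of both separate changes, as log2 differences of FPKM + 1 (horizontal axis), for lists of 5 or more tested members and, in the bottom row, for all genes tested. The joint median is 1.89 for naive pluripotency and -1.96 for formative and primed genes. In the lists of keratins, annexins, focal adhesion and YAP targets it lies to the left of the sum. That is not particular to them: trophoblast markers (0.62 against a sum of 1.57) and imprinted genes (-0.82 against -0.13) also lie to the left. Other lists lie to the right, such as two-cell-like genes (0.49 against -0.47).

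Of the signalling lists, the targets and feedback inhibitors of ERK fell in 5 of 12 members and rose in 1, against 8% and 9.47% of all genes. Their median joint change was -0.48, with medians of -0.68 for the medium and 0.23 for the coating. Dusp6, the phosphatase that inactivates ERK, had 2.78 and 1.52 FPKM in LN511 2i, against 46.4 and 48.3 FPKM in gelatin Std, a joint change of -3.97 against a sum of -3.7. Spry4, another inhibitor of the pathway, had 1.37 and 1.72 FPKM in LN511 2i, against 24.7 and 22.5 FPKM in gelatin Std; its joint change of -3.28 went beyond the sum of -2.21 (departure -1.06, interval -1.67 to -0.45, adjusted p = 0.192, not called). The member that rose was Spry2, with 66 and 59.9 FPKM in LN511 2i, against 45.3 and 35.3 FPKM in gelatin Std. Its call was lost without LN511 2i replicate 1 (joint change 0.57), LN511 2i replicate 2 (0.71) or gelatin Std replicate 2 (0.46). It was also lost with the 4 libraries alone (limma adjusted p = 0.0895). In Dusp6 and Spry4 the LN511 2i libraries were all below those of gelatin Std. Egr1, an immediate target of ERK, was left out of the tests because a whole group was listed at 0: it had 0 FPKM in both LN511 2i libraries, against 7.52 and 7.45 FPKM in gelatin Std, with 18.2 and 17.5 FPKM in LN511 Std and 0.13 and 0.12 FPKM in gelatin 2i.

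Of 9 targets of Wnt and beta-catenin, 5 rose and 1 fell, against 9.47% and 8% of all genes. The median was 1.12 (medium 0.66, coating 0.00). The rises numbered 2 without LN511 2i replicate 1 and 3 without LN511 2i replicate 2 or either gelatin Std library. Cdx1, a homeobox factor and direct target, had 34 and 38.9 FPKM in LN511 2i, against 0.27 and 1.00 FPKM in gelatin Std, a joint change of 4.55 against a sum of 5.57 (departure -1.02, interval -1.99 to -0.06, adjusted p = 0.39, not called). Sp5, a zinc-finger repressor and direct target, had 8.88 and 6.72 FPKM in LN511 2i, against 0.22 and 0 FPKM in gelatin Std. Both gelatin Std libraries of these genes were at 1 FPKM or less. Axin2, the negative feedback gene of the pathway, had 8.66 and 5.63 FPKM in LN511 2i, against 1.16 and 0.71 FPKM in gelatin Std (joint change 2.06, adjusted p = 0.013), a call lost without LN511 2i replicate 1 (adjusted p = 0.0613) or without gelatin Std replicate 2 (adjusted p = 0.0727). Lef1, itself a factor that carries beta-catenin, was the member that fell, with 0.74 and 0.69 FPKM in LN511 2i, against 10.1 and 9.68 FPKM in gelatin Std. The promoter window of Sp5, shown as a member that rose with 2i, is chr2:70474673-70474972, plus strand, in RefSeq (GRCm38.p6), 250 bases before to 50 after the start. The capitals mark CTTTGA, a core letter sequence bound by TCF and LEF factors, which stands there 2 times, at -204 and -104, and in the reverse orientation (TCAAAG) 0 times. It occurs on either strand in 16% of 32851 promoters of the same length.
Sp5: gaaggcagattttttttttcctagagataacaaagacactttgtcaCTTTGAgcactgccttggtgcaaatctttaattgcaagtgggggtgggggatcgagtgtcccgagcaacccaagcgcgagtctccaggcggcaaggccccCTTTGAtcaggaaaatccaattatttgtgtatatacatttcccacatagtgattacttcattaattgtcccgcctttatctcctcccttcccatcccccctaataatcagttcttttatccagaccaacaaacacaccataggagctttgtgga

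Nodal pathway genes fell in 3 of 6 members and rose in 0 (median -1.07). Of all genes 8% fell and 9.47% rose, shares that apply also to the BMP and Id genes below. Beside Lefty1 and Tdgf1 the called member was Skil, a feedback repressor of SMAD signalling, with 5.1 and 3.66 FPKM in LN511 2i, against 37 and 31.7 FPKM in gelatin Std (joint change -2.72, sum -2.84). BMP and Id genes were divided: 4 of 10 rose and 1 fell, with a median of 0.47. Leaving out any one of the 8 libraries left 1 or 2 rises, 1 of them without LN511 2i replicate 1 or either gelatin Std library. Id2, an inhibitor of bHLH factors, had 33.6 and 34.4 FPKM in LN511 2i, against 5.06 and 8.74 FPKM in gelatin Std, and followed the coating, with 46 and 40.3 FPKM in LN511 Std and 7.52 and 4.84 FPKM in gelatin 2i. Its medium change was -0.12 (adjusted p = 0.815), its coating change 2.52 (adjusted p = 0.0109), its sum 2.4 and its joint change 2.19 (adjusted p = 0.00369). Id1, of the same family, had 4.35 and 6.1 FPKM in LN511 2i, against 33.9 and 29.6 FPKM in gelatin Std, lower in LN511 2i, with 54.4 and 42.8 FPKM in LN511 Std and 12.4 and 12.6 FPKM in gelatin 2i. Its joint change of -2.4 (adjusted p = 0.000647) compared with a sum of -0.68, a departure of -1.72 (interval -2.38 to -1.06, adjusted p = 0.0902, not called).

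Genes of DNA methylation fell in 4 of 11 members and rose in 1, against 8% and 9.47% of all genes (median -0.79, sum -0.64). Dnmt3a, a de novo methyltransferase, had 5.58 and 4.42 FPKM in LN511 2i, against 75.6 and 75.1 FPKM in gelatin Std, a joint change of -3.68 and a sum of -3.62, with a departure of -0.06 (interval -0.54 to 0.42). Its catalytically inactive partner Dnmt3l had 227 and 236 FPKM in LN511 2i, against 491 and 547 FPKM in gelatin Std and lay lowest in gelatin 2i, at 152 and 129 FPKM, so the joint change of -1.16 was less steep than the sum of -1.83 (departure 0.67, adjusted p = 0.137, not called). Dnmt3b, the other de novo enzyme, had 48.5 and 46.5 FPKM in LN511 2i, against 122 and 259.5 FPKM in gelatin Std, a wide spread. Its joint change of -1.89 was called (limma adjusted p = 0.0272). The call was lost without LN511 2i replicate 1 (joint change -1.92), LN511 2i replicate 2 (-1.86) or gelatin Std replicate 2 (-1.35). It was also lost with the 4 libraries alone (limma adjusted p = 0.0632). Uhrf1, which recruits the maintenance enzyme, was the member that rose at the transcript level, with 209 and 201 FPKM in LN511 2i, against 133 and 134 FPKM in gelatin Std (0.61, adjusted p = 0.0104); that call was lost without gelatin Std replicate 1 (adjusted p = 0.0548) or replicate 2 (adjusted p = 0.057) and when its highest transcript alone was used (adjusted p = 0.213). Dnmt1, the maintenance enzyme, had 80.04 and 49.5 FPKM in LN511 2i, against 83.7 and 81.3 FPKM in gelatin Std and was not called (adjusted p = 0.24), but was without LN511 2i replicate 1 (adjusted p = 0.0102).

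Of 10 subunits and cofactors of Polycomb repressive complex 2, which methylates histone H3, 3 rose and 0 fell. Over all genes 9.47% rose and 8% fell, shares that apply also to the imprinted genes below. Epop, a modulator of the complex in embryonic stem cells, had 183 and 218 FPKM in LN511 2i, against 48.2 and 43.3 FPKM in gelatin Std, a rise of 2.11 against a sum of 2.4. Mtf2, an accessory subunit that directs the complex to CpG islands, had 42 and 65.4 FPKM in LN511 2i, against 18 and 15.3 FPKM in gelatin Std. Suz12, a core subunit, had 103 and 97.1 FPKM in LN511 2i, against 66.6 and 62 FPKM in gelatin Std. The LN511 2i libraries were the higher ones for all 3. Imprinted genes fell in 5 of 18 members and rose in 1 (median -0.82, medium -0.75, coating 0.23), and 3 fell without gelatin Std replicate 2. Plagl1, a zinc-finger factor of the imprinted network, was the member that rose, with 13.2 and 6.65 FPKM in LN511 2i, against 0.49 and 0.27 FPKM in gelatin Std. Mest, a paternally expressed hydrolase-like gene, had 11.6 and 8.68 FPKM in LN511 2i, against 47.1 and 47.5 FPKM in gelatin Std. Nnat, paternally expressed neuronatin, had 4.49 and 2.76 FPKM in LN511 2i, against 12.7 and 14.2 FPKM in gelatin Std, with 39.3 and 46.9 FPKM in LN511 Std and 5.37 and 4.56 FPKM in gelatin 2i: the coating change in Std was 1.61 and the medium change -1.28, both called, and the joint change of -1.67 lay below their sum of 0.33 (departure -2.0, interval -2.79 to -1.21, adjusted p = 0.0966, not called). The joint call of Nnat was lost when its highest transcript alone was used (adjusted p = 0.151).

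Glycolysis genes fell in 10 of 20 members and rose in 0, against 8% and 9.47% of all genes. Their median joint change was -0.46, against medians of -0.18 for the medium, -0.14 for the coating and -0.30 for the sum. Fewer fell without gelatin Std replicate 1. Pgk1, phosphoglycerate kinase, had 341 and 371 FPKM in LN511 2i, against 809.7 and 803 FPKM in gelatin Std, a joint change of -1.18 (adjusted p = 0.000118) and a departure of 0.13 (interval -0.08 to 0.34). Slc16a3, the lactate exporter MCT4, had 11.4 and 8.21 FPKM in LN511 2i, against 83.5 and 78.6 FPKM in gelatin Std, with a joint change of -2.94 and a sum of -2.16. Pdk1, which inhibits entry of pyruvate into the mitochondrial cycle, had 2.97 and 3.86 FPKM in LN511 2i, against 50.9 and 53.4 FPKM in gelatin Std, with 43 and 47.7 FPKM in LN511 Std and 9.54 and 12 FPKM in gelatin 2i. LN511 2i was the lowest group for Pdk1, and its joint change of -3.6 exceeded the sum of -2.38 (departure -1.21, interval -1.8 to -0.63, adjusted p = 0.137, not called).

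Targets induced by hypoxia-inducible factors, among them Pdk1, fell in 4 of 12 members and rose in 1, against 8% and 9.47% of all genes. Their median was -0.79 and the median sum -0.65. The member that rose was Kdm3a, a histone demethylase, with 21.1 and 23.8 FPKM in LN511 2i, against 10.9 and 6.83 FPKM in gelatin Std. Its call was lost without LN511 2i replicate 2 (joint change 1.2) and with the 4 libraries alone (limma adjusted p = 0.0632). Egln3, an oxygen-sensing prolyl hydroxylase, had 2.13 and 2.89 FPKM in LN511 2i, against 20.7 and 20.9 FPKM in gelatin Std. Bnip3, a mitophagy receptor, had 12.4 and 13 FPKM in LN511 2i, against 79.7 and 88.7 FPKM in gelatin Std, with 45.8 and 51.4 FPKM in LN511 Std and 20.9 and 22.7 FPKM in gelatin 2i. LN511 2i was the lowest group for Egln3 and Bnip3. For Bnip3 both separate changes were called, -1.9 for the medium and -0.78 for the coating, and the joint change of -2.64 compared with a sum of -2.68 (departure 0.05, interval -0.36 to 0.45). Its promoter window, shown because this target fell with each factor and by their sum with both, is chr7:138909457-138909756, minus strand. The capitals mark ACGTG, the core of the hypoxia response element, at -107 and its reverse complement CACGT at -108, which overlap in a palindrome. The letters occur on either strand in 19.6% of the 32851 promoters.
Bnip3: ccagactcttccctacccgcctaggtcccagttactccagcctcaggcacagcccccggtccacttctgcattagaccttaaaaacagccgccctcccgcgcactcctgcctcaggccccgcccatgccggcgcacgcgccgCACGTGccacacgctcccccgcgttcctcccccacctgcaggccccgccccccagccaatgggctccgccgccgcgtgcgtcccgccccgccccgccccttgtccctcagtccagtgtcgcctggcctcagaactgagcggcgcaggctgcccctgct

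Oxidative phosphorylation genes rose in 3 of 20 members and fell in 0, with a median of 0.13, against 9.47% that rose and 8% that fell among all genes. Uqcrb, a subunit of complex III, had 367 and 427 FPKM in LN511 2i, against 236 and 217 FPKM in gelatin Std (0.80, adjusted p = 0.00268), and kept its call whichever library was left out. The calls of Cox6a1, a subunit of complex IV (0.64, adjusted p = 0.035), and Cycs, cytochrome c (0.37, adjusted p = 0.0443), were less stable: over the fits with 1 library left out Cox6a1 was called in 3 of 8 and Cycs in 0 of 8 (adjusted p of 0.0617 to 0.15). The list then had 1 rise without LN511 2i replicate 2, either gelatin 2i library or either gelatin Std library. In lipid synthesis 2 of 20 rose and 3 fell, but 1 fell without LN511 2i replicate 2 and 0 by limma without either gelatin Std library. Scd2, a stearoyl-CoA desaturase, had 125 and 115 FPKM in LN511 2i, against 73.9 and 76.1 FPKM in gelatin Std, with 46 and 44.7 FPKM in LN511 Std and 145 and 149.8 FPKM in gelatin 2i; its coating change of -0.71 and its medium change of 0.96 were both called, in opposite directions. Scd1, its close homologue, had 32.4 and 28.9 FPKM in LN511 2i, against 15.7 and 15.5 FPKM in gelatin Std. The joint change of Scd2 was 0.67, its sum 0.25 and its departure 0.42 (interval 0.14 to 0.69). In the serine, threonine and one-carbon list 3 of 13 rose and 3 fell, or 1 fell without gelatin Std replicate 1. Gldc, the glycine decarboxylase, had 44.4 and 43.9 FPKM in LN511 2i, against 92 and 100.4 FPKM in gelatin Std, with 84.3 and 69 FPKM in LN511 Std and 21.3 and 18.8 FPKM in gelatin 2i. Its joint change of -1.11 was less steep than the sum of -2.54, by a departure of 1.43 (interval 1.0 to 1.86, adjusted p = 0.0519, just missing the call).

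Among adhesion genes were lists whose median coating change in Std was above the median medium change on gelatin. Of 12 integrins and laminin receptors tested, 2 rose and 1 fell, with a median joint change of 0.29, a median coating change of 0.38 and a median medium change of -0.08. Among all genes 9.47% rose and 8% fell. With the 4 libraries of the comparison alone, 2 members of this list rose and 0 fell. Bcam, the Lutheran glycoprotein that binds laminin alpha5, had 161 and 171 FPKM in LN511 2i, against 51.7 and 42 FPKM in gelatin Std, with 130.1 and 128 FPKM in LN511 Std and 141 and 141 FPKM in gelatin 2i. It was lower in gelatin Std than in any other group: the medium change was 1.58, the coating change 1.45, the sum 3.03 and the joint change 1.81 (adjusted p = 0.00017; departure -1.22, interval -1.58 to -0.85, adjusted p = 0.0519, just missing the call). Itga6, the alpha6 subunit of the laminin-binding integrin, had 27.7 and 27.1 FPKM in LN511 2i, against 32.9 and 30.3 FPKM in gelatin Std and was not called (joint change -0.20, adjusted p = 0.256). Itgb5, an integrin subunit that binds vitronectin, had 38.6 and 43.3 FPKM in LN511 2i, against 18.8 and 14.6 FPKM in gelatin Std, a rise of 1.25 (adjusted p = 0.00536).

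Basement membrane and matrix genes rose in 8 of 16 members and fell in 2, against 9.47% and 8% of all genes. Their median was 0.67 (medium 0.72, coating 0.19, sum 1.08). The rises numbered 5 without LN511 2i replicate 1 or either gelatin Std library. Sparc, a secreted collagen-binding protein, had 165 and 185 FPKM in LN511 2i, against 45.4 and 48.1 FPKM in gelatin Std, with 93.5 and 95.2 FPKM in LN511 Std and 115 and 105 FPKM in gelatin 2i. LN511 2i was its highest group, and both separate changes were called (1.22 and 1.0), with a sum of 2.22 and a joint change of 1.88 (departure -0.34, interval -0.65 to -0.02). Nid1, nidogen, which links laminin to collagen IV, had 65.8 and 53.9 FPKM in LN511 2i, against 9.75 and 8.93 FPKM in gelatin Std, and its coating change in Std was 0.18 (adjusted p = 0.586). The members that fell were Col18a1, a basement membrane collagen, with 55 and 53 FPKM in LN511 2i, against 108 and 107 FPKM in gelatin Std, and Lamb1, a laminin beta chain, with 3.83 and 5.15 FPKM in LN511 2i, against 28.3 and 34.6 FPKM in gelatin Std, a call lost without gelatin Std replicate 2 (adjusted p = 0.0611). Lama1, a laminin alpha chain, had 6.94 and 7.08 FPKM in LN511 2i, against 1.58 and 1.75 FPKM in gelatin Std (1.59, adjusted p = 0.0149), a call lost without LN511 2i replicate 1 (adjusted p = 0.0545), without LN511 2i replicate 2 (adjusted p = 0.0629), without gelatin Std replicate 1 (adjusted p = 0.0687) or without gelatin Std replicate 2 (adjusted p = 0.0625).

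Genes of focal adhesions and the actin cytoskeleton rose in 9 of 28 members and fell in 1, against 9.47% and 8% of all genes. Their median joint change was 0.37, below the median coating change in Std of 0.83 and the median sum of 1.13, the median medium change was 0.26 and the median departure -0.55. Tpm4, a tropomyosin, had 103 and 103 FPKM in LN511 2i, against 43.8 and 38.7 FPKM in gelatin Std, with 89.4 and 88.3 FPKM in LN511 Std and 57.8 and 58 FPKM in gelatin 2i, and stayed near its sum (joint change 1.3, sum 1.57, departure interval -0.57 to 0.03). Lmna, the A-type lamin, had 44.3 and 49.4 FPKM in LN511 2i, against 12.4 and 13 FPKM in gelatin Std. Cnn3, an actin-binding calponin, had 331 and 348 FPKM in LN511 2i, against 112 and 117 FPKM in gelatin Std. All 3 rose, with LN511 2i the highest group. Flna, filamin A, which crosslinks actin, did not: it had 56.6 and 52.8 FPKM in LN511 2i, against 55.4 and 57.1 FPKM in gelatin Std, with 100.6 and 99.1 FPKM in LN511 Std and 63.0 and 67.6 FPKM in gelatin 2i. The values of LN511 2i and gelatin Std overlapped, LN511 Std alone was high, and the departure of -1.07 was called (adjusted p = 0.0421).

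Of 9 tested targets of YAP and SRF, factors that respond to tension and adhesion, 2 rose and 0 fell, against 9.47% and 8% of all genes. The list had a median joint change of -0.06, a median coating change of 0.89, a median medium change of -0.35 and a median departure of -0.77. Ccn1, a secreted matricellular protein, had 43 and 44 FPKM in LN511 2i, against 11.3 and 10.4 FPKM in gelatin Std, with 77.7 and 78.5 FPKM in LN511 Std and 16.9 and 16.1 FPKM in gelatin 2i. LN511 2i was above both gelatin groups and below LN511 Std. The joint change of 1.91 (adjusted p = 0.000148) fell short of the sum of 3.3, a called departure of -1.39 (interval -1.76 to -1.02, adjusted p = 0.0415). Ccn2, its homologue, had 34.7 and 29.5 FPKM in LN511 2i, against 9.56 and 10.8 FPKM in gelatin Std, with 21.5 and 30.8 FPKM in LN511 Std and 16.2 and 17.7 FPKM in gelatin 2i, and a joint change of 1.56 against a sum of 1.94 (departure -0.38, interval -1.05 to 0.29, adjusted p = 0.638). The difference between the departures of these homologues was not tested. The promoter window of Ccn1, shown as that of the target with the called departure, is chr3:145649936-145650235, minus strand. The capitals mark CATTCC, the letters bound by the TEAD partners of YAP, at -103, with the reverse complement GGAATG found 0 times. The letters occur on either strand in 14.7% of the 32851 promoters.
Ccn1: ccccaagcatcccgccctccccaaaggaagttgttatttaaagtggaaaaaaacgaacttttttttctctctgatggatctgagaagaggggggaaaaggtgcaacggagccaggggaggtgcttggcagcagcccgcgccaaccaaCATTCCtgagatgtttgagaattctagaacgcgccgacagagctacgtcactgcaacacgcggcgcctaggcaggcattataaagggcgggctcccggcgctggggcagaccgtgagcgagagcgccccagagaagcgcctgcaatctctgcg

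Keratins, annexins and related genes held several of the called departures below the sum. In the list of simple epithelial keratins and partners 2 of 10 rose and 1 fell, against 9.47% and 8% of all genes. With the 4 libraries of the comparison alone, or with doubtful zeros kept, 2 rose and 0 fell. The list had a median joint change of -0.06, a median coating change of 1.2 and a median sum of 1.81. Its median departure was -1.77, against -0.04 over all genes. Krt8, a keratin of simple epithelia, on chromosome 15 at 101996711 to 102004342, had 12.5 and 13.6 FPKM in LN511 2i, against 4.77 and 5.19 FPKM in gelatin Std, with 87.3 and 93.4 FPKM in LN511 Std and 9.51 and 11.9 FPKM in gelatin 2i. It rose by 1.23 ± 0.16 (adjusted p = 0.00405), where the sum of a coating change of 3.93 and a medium change of 0.96 gave 4.89. Its departure of -3.66 (interval -4.2 to -3.13, adjusted p = 0.0114) was called. Over the 8 fits with 1 library left out it ranged over -3.81 to -3.52, with adjusted p of 0.0259 to 0.116, and was called in 4.

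Krt18, the partner with which Krt8 forms filaments, had 5.76 and 10.6 FPKM in LN511 2i, against 10.2 and 10.7 FPKM in gelatin Std, with 75.5 and 76.7 FPKM in LN511 Std and 4.52 and 3.66 FPKM in gelatin 2i. The LN511 2i and gelatin Std libraries overlapped, and LN511 Std was again the high group. Its joint change was -0.38 (adjusted p = 0.372), its sum 1.57 and its departure -1.95 (interval -2.83 to -1.06, adjusted p = 0.13, not called). Sfn, the 14-3-3 sigma protein of epithelial cells, had 41.2 and 47.2 FPKM in LN511 2i, against 25.3 and 22.1 FPKM in gelatin Std, with 124 and 132 FPKM in LN511 Std and 43.8 and 40.3 FPKM in gelatin 2i. LN511 2i and gelatin 2i were at like levels, LN511 Std well above both and gelatin Std below. Its joint change of 0.87 (adjusted p = 0.00477) fell short of a sum of 3.19 by a called departure of -2.32 (interval -2.72 to -1.92, adjusted p = 0.0114).

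Annexins, S100 proteins and galectins rose in 4 of 14 members and fell in 2, against 9.47% and 8% of all genes. Fewer fell without LN511 2i replicate 1, either LN511 Std library or either gelatin Std library. The list had a median joint change of 0.53, a median sum of 1.68 and a median departure of -1.20. S100a11, a calcium-binding protein, rose in LN511 2i, with 264 and 309.8 FPKM in LN511 2i, against 119 and 103 FPKM in gelatin Std (1.37, sum 2.01). Anxa1, a membrane-binding annexin, had 1.65 and 2.36 FPKM in LN511 2i, against 1.04 and 1.47 FPKM in gelatin Std, with 7.28 and 8.32 FPKM in LN511 Std and 6.41 and 6.76 FPKM in gelatin 2i. The values of LN511 2i were above those of gelatin Std without a called joint change (adjusted p = 0.319), although each factor alone raised it, by 1.76 and 1.97, so the departure was -3.31 (interval -4.17 to -2.45, adjusted p = 0.0395). Lgals1, galectin 1, a lectin that binds laminin, had 34.9 and 31.4 FPKM in LN511 2i, against 25.8 and 33.8 FPKM in gelatin Std, with 125 and 141 FPKM in LN511 Std and 32.4 and 31.3 FPKM in gelatin 2i. The first pair overlapped, and the departure was -2.08 (interval -2.58 to -1.58, adjusted p = 0.032).

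S100a6, another S100 protein, had 2.34 and 5.16 FPKM in LN511 2i, against 14.8 and 10.01 FPKM in gelatin Std, with 52.7 and 54.4 FPKM in LN511 Std and 1.85 and 3.47 FPKM in gelatin 2i. Here the coating in Std raised it by 2.05 and the medium on gelatin lowered it by 1.89, both called. Its joint change of -1.54 (adjusted p = 0.0325) was nearer to the medium change than to the sum, which was 0.16 (departure -1.7, interval -2.94 to -0.46, adjusted p = 0.275, not called). The joint call was lost without LN511 2i replicate 1 (joint change -1.1), either LN511 Std library (-1.54), gelatin Std replicate 1 (-1.28) or gelatin Std replicate 2 (-1.8). It was also lost with the 4 libraries alone (limma adjusted p = 0.101) and with no filter on low values (limma adjusted p = 0.0513).

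Other genes with separate changes of opposite sign behaved in several ways. Plaur, the urokinase receptor, had 3.14 and 3.19 FPKM in LN511 2i, against 10.8 and 8.96 FPKM in gelatin Std, with 28.4 and 36.9 FPKM in LN511 Std and 2.5 and 3.38 FPKM in gelatin 2i, and a joint change of -1.38 against a sum of 0.15 (departure -1.53, interval -2.31 to -0.76, adjusted p = 0.155, not called). The joint call of Plaur was lost without gelatin Std replicate 1 (adjusted p = 0.0541). Sema3e, a secreted semaphorin, had 0.12 and 0 FPKM in LN511 2i, against 2.09 and 2.36 FPKM in gelatin Std, with 8.87 and 8.81 FPKM in LN511 Std and 0.11 and 0.05 FPKM in gelatin 2i. For both genes LN511 Std was the highest group and the 2i groups were the lowest. Ephx2, the soluble epoxide hydrolase, had 21.7 and 25.8 FPKM in LN511 2i, against 9.32 and 6.74 FPKM in gelatin Std, with 2.64 and 1.95 FPKM in LN511 Std and 32.9 and 36.2 FPKM in gelatin 2i; its joint change of 1.47 (adjusted p = 0.00626) compared with a sum of 0.54 (departure 0.92, interval 0.19 to 1.65, adjusted p = 0.316, not called).

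Where both separate changes were rises, the joint level was in several genes no higher than that of 1 factor. Tgm1, transglutaminase 1 of epithelial envelopes, had 18.7 and 27.2 FPKM in LN511 2i, against 6.03 and 3.84 FPKM in gelatin Std, with 43.4 and 30.1 FPKM in LN511 Std and 23 and 21.2 FPKM in gelatin 2i, so that only gelatin Std stood apart. Its joint change was 2.01, its sum 4.66 and its departure -2.64 (interval -3.58 to -1.7, adjusted p = 0.0762, not called). Abcb6, a porphyrin transporter, had 5.71 and 6.1 FPKM in LN511 2i, against 0 and 0.98 FPKM in gelatin Std, with 4.96 and 6.00 FPKM in LN511 Std and 5.56 and 6.93 FPKM in gelatin 2i (departure -2.26, interval -3.48 to -1.05, adjusted p = 0.178, not called); its joint call was lost with the 4 libraries alone (adjusted p = 0.0531). Cyb5r1, a cytochrome b5 reductase, had 49.2 and 54.6 FPKM in LN511 2i, against 29.4 and 19.9 FPKM in gelatin Std, with 69.9 and 72.6 FPKM in LN511 Std and 99.9 and 82.3 FPKM in gelatin 2i. Its departure of -2.32 was called (limma adjusted p = 0.0421). Its joint call was lost without LN511 2i replicate 2 (joint change 0.99) and with the 4 libraries alone (limma adjusted p = 0.0635). Aard, chosen by the same rule, stood differently, with a mean of 20.3 ± 1.74 FPKM in LN511 2i, against 2.33 ± 1.75 FPKM in gelatin Std, and 12.1 ± 0.27 FPKM in LN511 Std and 10.8 ± 0.92 FPKM in gelatin 2i (SD, n = 2 each). LN511 2i was its highest group, and its joint change of 2.79 compared with a sum of 4.01 (departure -1.23, interval -2.42 to -0.03, adjusted p = 0.398, not called).

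The 5 called departures above the sum were of genes lowest in LN511 Std or low in both intermediate groups. Xlr3a and Xlr3b, X-linked genes of the Xlr family with near-identical copies between which reads can be split, are uncertain. Xlr3b had 11.2 and 10.8 FPKM in LN511 2i, against 9.61 and 9.68 FPKM in gelatin Std, with 0.41 and 0.36 FPKM in LN511 Std and 5.56 and 8.3 FPKM in gelatin 2i (departure 3.57, interval 2.74 to 4.39, adjusted p = 0.0299). Xlr3a had 12.6 and 11.9 FPKM in LN511 2i, against 12.7 and 12.5 FPKM in gelatin Std, with 1.53 and 2.21 FPKM in LN511 Std and 8.49 and 7.63 FPKM in gelatin 2i (departure 2.81, adjusted p = 0.0363). In both, LN511 Std alone was far below the other groups. Atp5a1, the alpha subunit of the mitochondrial ATP synthase, had 513 and 551 FPKM in LN511 2i, against 585 and 565 FPKM in gelatin Std, with 234 and 260.3 FPKM in LN511 Std and 503 and 517 FPKM in gelatin 2i (joint change -0.11, adjusted p = 0.346; departure 1.28, adjusted p = 0.0151). Hnrnph3, a splicing factor, had 25.4 and 25.1 FPKM in LN511 2i, against 45.9 and 46 FPKM in gelatin Std, with 17.8 and 18.3 FPKM in LN511 Std and 22.1 and 17.5 FPKM in gelatin 2i, and was highest in gelatin Std (departure 1.65, adjusted p = 0.0442). Mrgpra6, annotated as a transcribed pseudogene, had 476 and 456 FPKM in LN511 2i, against 507 and 526 FPKM in gelatin Std, with 322 and 302 FPKM in LN511 Std and 405 and 378 FPKM in gelatin 2i (departure 0.98, adjusted p = 0.0299).

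**Figure D4:**
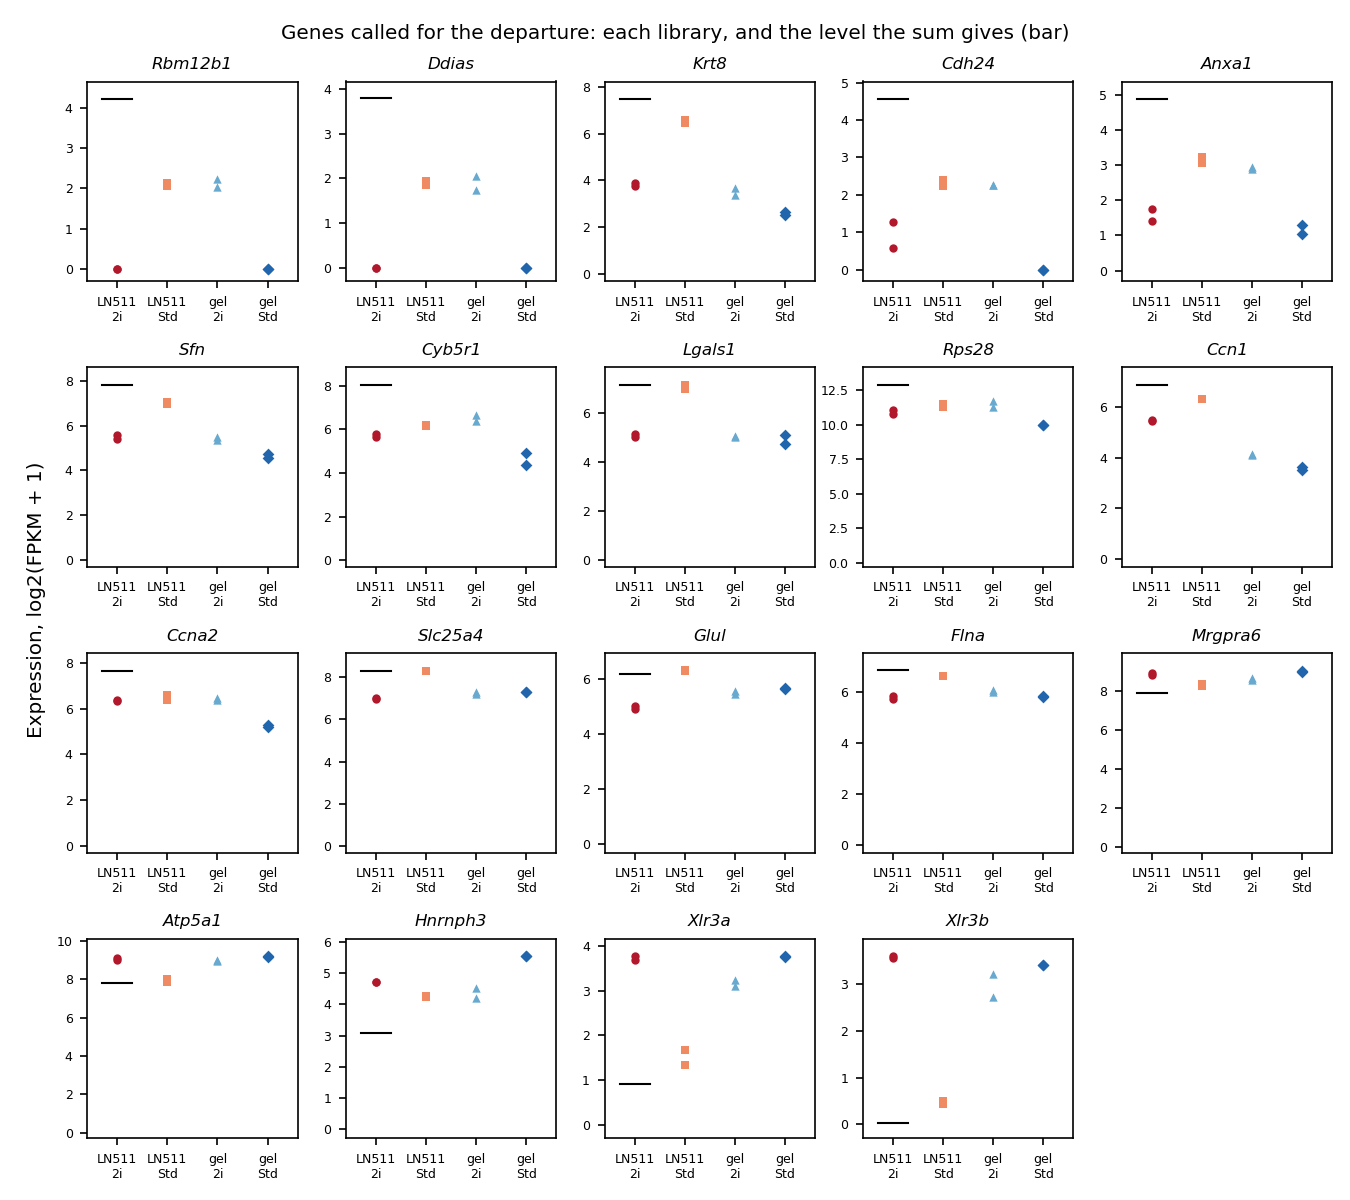
Expression of the 19 genes with a called departure, as log2(FPKM + 1) (vertical axis), with 1 point per library in the order LN511 2i, LN511 Std, gelatin 2i, gelatin Std. The bar over LN511 2i is the level that the sum of the separate changes gives; both LN511 2i libraries lie below it in 14 genes and above it in 5.

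Markers of other cell types were read beside these results. The 17 trophoblast markers, which include Krt8 and Krt18, summed to 43.1 and 51.7 FPKM in LN511 2i, against 35.5 and 43.0 FPKM in gelatin Std, and to 205.3 and 206.2 FPKM in LN511 Std and 51.9 and 70.5 FPKM in gelatin 2i; 5 of the 17 had a mean under 1 FPKM in LN511 2i and also in gelatin Std. Members lower in LN511 2i without a call included Ascl2, at 3.07 and 2.84 FPKM, against 6.91 and 8.12 FPKM in gelatin Std. Krt7 was likewise lower, at 1.14 and 0.29 FPKM in LN511 2i, against 2.25 and 2.66 FPKM in gelatin Std. Of 12 tested, 5 rose and 0 fell, against 9.47% and 8% of all genes. With 1 library left out, 1 to 3 rose; Eomes was then called in 0 of 8 fits, Tfap2a in 2 and Gata2 in 5. Fibroblast and feeder markers summed to 66.1 and 72.9 FPKM in LN511 2i, against 51.3 and 48.2 FPKM in gelatin Std, of which Vim, a filament protein that stem cells also express, made up 64.2 and 70.1 FPKM in LN511 2i and 45.1 and 41.9 FPKM in gelatin Std, and 10 of 14 were under 1 FPKM in each of these groups. Neuroectoderm markers summed to 32.5 and 28.4 FPKM in LN511 2i, against 33.6 and 29.6 FPKM in gelatin Std, with 7 of 12 under 1 FPKM in each. Primitive endoderm markers summed to 3.8 and 5.2 FPKM in LN511 2i, against 9.0 and 12.6 FPKM in gelatin Std, with 9 of 12 under 1 FPKM in each. The mesendoderm markers summed to 5.7 and 6.9 FPKM in LN511 2i, against 1.9 and 1.4 FPKM in gelatin Std, with 7 of 10 under 1 FPKM in each. All 3 that were tested rose, T, Eomes and Gsc, and none averaged above 3 FPKM in LN511 2i; limma called 0 without LN511 2i replicate 2 or either gelatin Std library. Cells of these types were not shown or counted, and their part in the results was not tested. Of the 19 naive genes tested, 12 rose as given above, and of the others Fgf4, Dppa4 and Cdh1 were lower in both LN511 2i libraries than in gelatin Std without a call. Pou5f1 was at 949 FPKM or more in every library.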

How the data were processed

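The deposited values were FPKM per RefSeq or assembled transcript and per gene, made by the authors with TopHat2 2.1.1 and Cufflinks 2.1.1 on mm10, per the submitters' processing notes; not given in the sources used here are which tool did what, the annotation, the strandedness and any scaling of libraries. The gene table listed at 0 47.3% of 52463 values that the transcripts put at 1 FPKM or more, so the FPKM of 31782 RefSeq transcripts (of 32688) were summed by symbol (RefSeq, GRCm38.p6); 21844 assembled transcripts were left out. Columns left out of the tables: 0.

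Genes with 1 FPKM or more in 2 or more libraries were kept (11240). Because a listed 0 can be a failed estimate, 836 genes were set aside whose replicates were 0 and at least 5 FPKM, and 130 more with a whole group at 0 while some group averaged at least 5 FPKM, which left 10274. limma 3.58.1 in R 4.3.3 (eBayes with trend) was fitted to log2(FPKM + 1) of all 8 libraries, 1 mean per group, with 4 residual degrees of freedom and Benjamini-Hochberg adjustment over all genes; the code was tested on simulated data. Fold changes on this scale understate those of low genes.

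Samples were grouped by the titles. Named genes were the 8 highest and 8 lowest joint changes, up to 6 departures each way, 5 genes each with both separate changes called in the same and in opposite directions, up to 3 called members of each of 34 lists, and a panel of 29 genes, of which 1 was not tested; 6 further genes were named after their values were seen. One gene that the rule names is not reported here. The comparison, members, lists and rule were chosen with earlier results of these data known. Lists are described by counts and medians, without a set test. Every list count is to be read beside the shares over all genes, 9.47% higher and 8% lower. Of 543 list genes, 413 were tested and 28 set aside. Alternatives changed the pseudocount, filters, zeros, transcript choice, scaling, replicate block and libraries.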

Additional observations from a re-analysis of the deposited data

Results flagged for a closer look

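For 19 genes the effect of the medium differed between the coatings, or equally the effect of the coating between the media, by the limma test of the departure (adjusted p under 0.05). In 14 of them LN511 2i lay below the level that the sum of the separate changes gives. Values already given are Krt8 with a departure of -3.66, Anxa1 with -3.31, Sfn with -2.32, Cyb5r1 with -2.32, Lgals1 with -2.08, Ccn1 with -1.39 and Flna with -1.07. Rps28, a ribosomal protein of the small subunit, had 2199 and 1786 FPKM in LN511 2i, 2877 and 2500.3 FPKM in LN511 Std, 2495 and 3362 FPKM in gelatin 2i and 1039.7 and 1008 FPKM in gelatin Std and a departure of -1.94; most ribosomal protein genes have processed copies elsewhere in the genome, so its level is uncertain. Ccna2, cyclin A2, had 83.4 and 80.1 FPKM in LN511 2i, 94.9 and 83.2 FPKM in LN511 Std, 81.2 and 86.5 FPKM in gelatin 2i and 35.2 and 37.5 FPKM in gelatin Std and a departure of -1.3: the other groups were at like levels, and gelatin Std was the low one. Slc25a4, the ADP/ATP carrier of mitochondria, had 125 and 127 FPKM in LN511 2i, 316 and 313 FPKM in LN511 Std, 148 and 157 FPKM in gelatin 2i and 154 and 154 FPKM in gelatin Std and a departure of -1.3, and Glul, glutamine synthetase, had 31.8 and 28.9 FPKM in LN511 2i, 78.6 and 77.8 FPKM in LN511 Std, 46.1 and 43.3 FPKM in gelatin 2i and 49.8 and 48.2 FPKM in gelatin Std and a departure of -1.21. LN511 Std was the high group in both.

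Low levels limit the next 3 genes. Rbm12b1 was listed at 0 in both groups of the comparison and stood at 3.37 and 3.18 FPKM in LN511 Std and 3.69 and 3.12 FPKM in gelatin 2i (departure -4.23). Ddias was likewise listed at 0 in LN511 2i and in gelatin Std, with 2.83 and 2.6 FPKM in LN511 Std and 2.33 and 3.16 FPKM in gelatin 2i (departure -3.79). Cdh24, a cadherin, had 1.42 and 0.51 FPKM in LN511 2i, 3.68 and 4.23 FPKM in LN511 Std, 3.83 and 3.78 FPKM in gelatin 2i and 0 and 0 FPKM in gelatin Std (departure -3.64). A listed 0 can be a failed estimate, and whether it was one here was not tested.

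In 5 genes LN511 2i lay above the sum: Mrgpra6 with a departure of 0.98, Atp5a1 with 1.28, Hnrnph3 with 1.65, Xlr3a with 2.81 and Xlr3b with 3.57. Every one of the 19 calls was lost without at least 1 library, and 15 were lost whichever of the 8 was left out. A part of the reads of any of these genes may stand under assembled transcripts, and that was not tested.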

How the results depend on the processing

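No called direction of a named gene reversed under any alternative run. The joint count of 1795 was 929 to 1547 without 1 library, 962 with the 4 libraries of the comparison alone, and 1511 to 1818 under the other alternatives. For the departure from additivity, the count of 19 was 31 with no filter on low values, 29 with a mean of 5 FPKM or more, 53 with doubtful zeros kept and 0 to 11 without 1 library; beside the counts of 0, without LN511 Std replicate 1, gelatin Std replicate 1 and gelatin Std replicate 2, 1092, 1183 and 1159 genes had an unadjusted limma p under 0.05. The medium count on gelatin of 1583 was 998 with its 4 libraries alone and 648 to 1516 without 1 library. The coating count in Std of 216 was 6 with its 4 libraries alone and 9 to 199 without 1 library. With the replicate number as a block, 1512 joint, 1 departure (Krt8), 1221 medium and 80 coating calls were made. Across all genes tested, deviations of same-numbered libraries correlated at -0.02 to 0.02. That cannot show whether same-numbered libraries shared a batch that acted on some genes, which was not tested. Of 124 called joint changes of named genes, 28 were lost under at least 1 alternative other than leaving out a library and 36 without 1 library; of the 19 departures, 18 and 19. The cause was not tested, except that fits with fewer libraries have fewer residual degrees of freedom. Depth is not known, and the smallest value above 0 of a low gene had a median of 0.134 FPKM.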

Other observations

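Cell junction genes moved both ways between LN511 2i and gelatin Std, 4 of 18 higher and 4 lower. Among all genes 9.47% were higher and 8% lower, shares that apply also to the Eph receptors and ephrins below. Gja1, connexin 43, had 21.1 and 29.3 FPKM in LN511 2i, against 80.04 and 92.1 FPKM in gelatin Std, and Cldn7, a claudin of tight junctions, 2.27 and 3.81 FPKM in LN511 2i, against 28 and 20.3 FPKM in gelatin Std, a joint change of -2.65 (adjusted p = 0.00108). Both fell, and in gelatin 2i they stood at 26.8 and 24.5 FPKM for Gja1 and 3.09 and 3.17 FPKM for Cldn7. Among Eph receptors and ephrins 2 of 11 rose (1 without gelatin Std replicate 1) and 2 fell. Epha2, a receptor for A-type ephrins, had 33.6 and 33.7 FPKM in LN511 2i, against 60.4 and 60.4 FPKM in gelatin Std, with 132 and 136 FPKM in LN511 Std and 23.3 and 27.5 FPKM in gelatin 2i. Its coating change of 1.14 and medium change of -1.22 were both called, and its joint change of -0.83 compared with a sum of -0.09 (departure -0.74, interval -1.09 to -0.39, adjusted p = 0.137, not called).

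Of 17 p53 targets 2 rose and 3 fell, against 9.47% and 8% of all genes. Cdkn1a, the cell cycle inhibitor p21, had 77.9 and 82.8 FPKM in LN511 2i, against 32.4 and 37.4 FPKM in gelatin Std, a rise of 1.18 (adjusted p = 0.000908), and a departure of 0.06 (interval -0.30 to 0.41). Ddit4, an inhibitor of mTORC1 that is also induced by hypoxia, had 18.8 and 20.6 FPKM in LN511 2i, against 189 and 178 FPKM in gelatin Std, with 68.5 and 71 FPKM in LN511 Std and 36.3 and 42.4 FPKM in gelatin 2i. It fell with each factor, by 2.2 with the medium and by 1.38 with the coating, both called, and by 3.15 with both. Pmaip1, the death-promoting protein Noxa, had 14.1 and 19.8 FPKM in LN511 2i, against 64.1 and 67.5 FPKM in gelatin Std. Germline genes fell in 7 of 15 members and rose in 1, against 0 to 4 that fell with 1 library left out, with a median joint change of -0.98, a median sum of -0.62 and a median departure of 0.85, which has the opposite sign to the gap between those medians; 11 of the 15 departures were above 0. Two-cell-like genes rose in 1 of 9 members and fell in 0, against 9.47% and 8% of all genes, with a median joint change of 0.49 against a median sum of -0.47. The call of the member that rose, Gm5662, was lost without LN511 2i replicate 2, without either gelatin Std library, with the replicate block, with a pseudocount of 0.1 and with the 4 libraries of the comparison alone. Over the 23 ribosomal protein genes tested in the list, 0 rose, 0 fell and the median joint change was 0.02. With quantile normalization 1 fell. Calls in this list also appeared when either LN511 2i library was left out, upward without replicate 1 and downward without replicate 2. A median near 0 does not show that each of the 23 genes was unchanged. Rps28 is not among them, and its joint change of 0.95 was called (limma adjusted p = 0.00934). That call was lost without gelatin Std replicate 1 (joint change 0.97) or replicate 2 (joint change 0.93).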
